A study of Mus musculus with 16 samples.

Results

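Immediate early genes are transcribed within minutes of neuronal firing, and 10 of them were followed here in hippocampal neurons that had received human apoE lipoproteins. They were taken by name, as activity-regulated members of the AP-1, Egr, Nr4a and Npas4 groups of transcription factors together with the effector *Arc*. The choice was made with earlier results of these data known. All 10 of the 10 were counted and passed the low-count filter that left 17038 of 48397 genes. Under apoE3, *Arc*, *Egr3* and *Npas4* stood below the control in each of the 4 same-numbered pairs of cultures, with fitted differences of 0.92 to 0.97 on the log2 scale, and *Junb* stood above it by 0.31. These 4 differences passed the test only when the replicate number was a term of the fit. Lower were 3 of 10 against 3.73% of all genes tested, and higher 1 of 10 against 7.95%, near that share. The calls held in 25 of 25 alternatives of that fit for *Arc*, 22 for *Egr3*, 21 for *Npas4* and 10 for *Junb*. A median of 76.3% of the variance of the 10 genes lay between replicate numbers, against 56.1% over all genes tested. With apoE4 none of the 10 genes passed against the control in either fit (0.194% of all genes without the replicate number and 3.3% with it). *Arc* and *Egr3* were higher than with apoE3 once the replicate number was a term (2 of 10, against 1.07% of all genes). These 2 calls held in 20 and 17 of 25 alternatives.

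The neurons came from P0–P2 wild type CD1 pups and were grown in dissociated culture with cytosine-β-D-arabinoside, an inhibitor of dividing cells. They received astrocyte-conditioned medium, concentrated 10-fold, at 10 and 13 days in vitro and were collected at 17 days. The 4 groups, of 4 libraries each, differed in the immortalized mouse astrocytes that made the medium: *Apoe*-/- astrocytes for the control, and astrocytes homozygous for the human *APOE* ε2, ε3 or ε4 allele in place of the mouse gene for apoE2, apoE3 and apoE4 lipoproteins. All 4 media came from astrocytes given 25-hydroxycholesterol, each allele was represented by 1 astrocytic line, and the study describes 4 independent neuronal cultures per group. The question asked of every gene was whether an apoE isoform changed it relative to medium that lacked apoE.

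Libraries held 14087723 to 34248172 counts on genes, and the 10 immediate early genes together took 3137 to 14546 of them. *Lars2* alone took 0.359 to 15% of the counts on genes. The 10 neuronal markers were present in every library, with a summed level of 2970 to 7560 CPM, the counts on genes scaled to a common library size. The 6 astrocyte markers summed to 513 to 5920 CPM, the oligodendrocyte lineage markers to 102 to 789 CPM, the fibroblast and mural cell markers to 13.2 to 301 CPM, the microglial ones to 5.82 to 29 CPM and the endothelial ones to 1.76 to 9.20 CPM. *Tmem119* of microglia and *Cldn5* and *Cdh5* of endothelial cells were at 0 in 1 library each. These are bulk samples, so fewer cells of a type and less RNA per cell cannot be told apart.

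When a synapse is active, calcium enters the neuron and kinases carry the signal to transcription factors that are already bound to DNA, such as CREB and the serum response factor with its ETS partners. Genes that need no new protein are then switched on and shut off again soon after. Most of them encode further transcription factors, which set the later response, and a few, among them *Arc*, act at the synapse itself. CREB binds a palindromic element, the CRE, or a single arm of it, called the CRE arm here.

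RefSeq (GRCm38.p6) start sites with 250 bases before and 50 bases after them were searched for 7 of the 10 genes. The CRE arm, TGACG or its reverse complement CGTCA, was found in 6 of these 7 windows. It was in 20.8% of the 32851 windows of the same length that were searched, which do not cover every gene. The full CRE, TGACGTCA, which contains both forms of the arm, was in 1.79% of the windows and in none of the 7, and the CArG box bound by the serum response factor was in 1.63% and likewise in none. Below is the CRE arm nearest to the start for each of the 6 genes, in 29 bases read along the gene with the CRE arm in capitals, shown because CREB at such elements is a known route from calcium to immediate early genes.
*Fos*, forward strand, chr12:85473812-85473840, 66 bases before the start: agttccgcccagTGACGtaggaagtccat
*Fosb*, reverse strand, chr7:19310089-19310117, 60 bases before the start: tggagttgcgggTGACGcaagcgcggggg
*Junb*, reverse strand, chr8:84978838-84978866, 106 bases before the start: gcttcctgacagTGACGcgagccgcctcc
*Egr4*, reverse strand, chr6:85513682-85513710, 109 bases before the start: tttggtcatttaCGTCAcggcgccagggc
*Npas4*, reverse strand, chr19:4990129-4990157, with CRE arms 179 and 169 bases before the start: cgttcgaCGTCAcgggaTGACGtcggaag
*Nr4a1*, forward strand, chr15:101266794-101266822, 40 bases before the start: cccctctccatgCGTCAcggagcgcttaa
The RefSeq start used for *Nr4a1* lies 12577 bases from the first base of the gene in GENCODE M21, and that of *Npas4* 345 bases. The window of *Egr2* held none of these letters. The starts of *Egr1*, *Egr3* and *Arc* were not searched, so for them the CRE arm, the full CRE and the CArG box are neither shown nor excluded. A match describes the letters and not a bound site. Sites further than 250 bases before a start lie outside these windows and were not searched.

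Per kilobase of merged exon, *Junb*, an AP-1 subunit that pairs with Fos proteins, had the highest level of the 10, with a median over the 16 libraries of 39.1 CPM per kb. *Fos*, the founding member of the family, followed at 17.4 CPM per kb and *Arc*, whose protein drives AMPA receptors off the synapse, at 12.3 CPM per kb. *Egr4* stood at 9.64 CPM per kb, the nuclear receptor gene *Nr4a1* at 5.90, *Npas4* at 4.94 and *Egr1* at 4.70 CPM per kb. *Egr3* (2.54 CPM per kb), *Fosb* (0.773) and *Egr2* (0.719) were the lowest. Over the 16 libraries the ranges of neighbours in this order overlapped, at 26.0 to 53.0 CPM per kb for *Junb* and 9.23 to 30.9 for *Fos*. Of the exon bases of *Junb*, 7.52% lie over *Prdx2* on the other strand, and the exons of the other 9 overlapped no other gene.

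The levels differed by replicate number, and replicate 3 stood apart. Summed over the 10 genes, the 4 libraries of replicate 3 lay between 352 and 563 CPM, above every other library, while the ranges of replicate 1 (239 to 288 CPM), replicate 2 (200 to 257 CPM) and replicate 4 (173 to 228 CPM) each overlapped the next. All 10 genes had their highest mean in replicate 3, and 7 had their lowest in replicate 4 and 3 (*Fos*, *Junb* and *Npas4*) in replicate 2. *Arc*, for instance, averaged 92.9 ± 41.4 CPM (SD, n = 4) over the replicate 3 libraries and 16.1 ± 1.81 CPM over those of replicate 4. *Egr4* averaged 36 ± 5.73 CPM and 7.94 ± 3.46 CPM in the same sets, and *Nr4a1* 50.5 ± 15.1 CPM and 9.39 ± 3.27 CPM. The highest of the 16 libraries was apoE4 replicate 3 for 8 of the genes and control replicate 3 for *Arc* and *Egr2*.

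**Figure D1:**
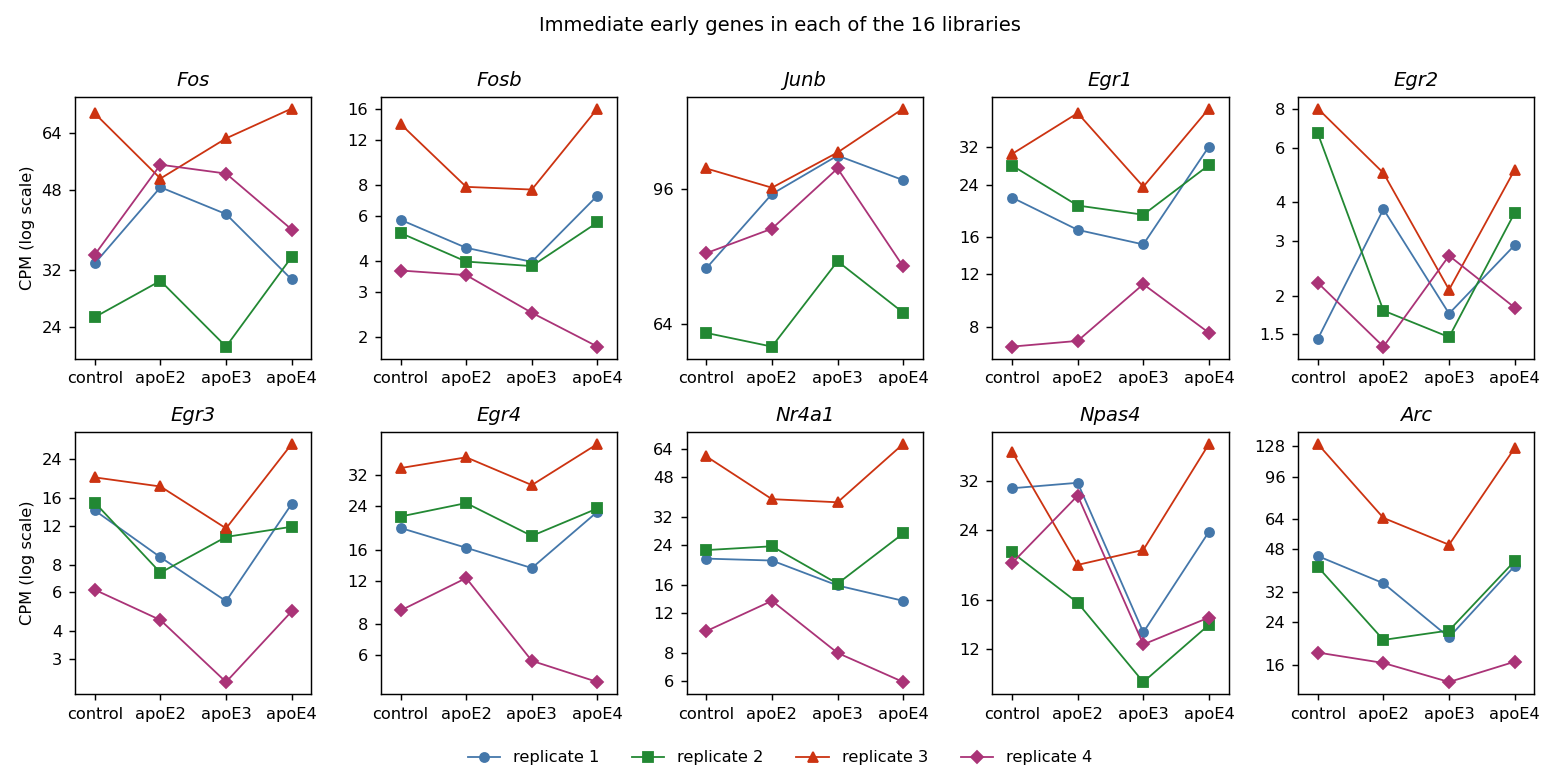
Level of each gene in the 16 libraries, in CPM on a log scale, by group along the x axis; each line joins the 4 libraries of 1 replicate number. Replicate 3 (triangles) is the highest line for most genes and replicate 4 (diamonds) has the lowest mean for 7 of the 10, while *Arc*, *Egr3* and *Npas4* are lower at apoE3 than at the control along each line.

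Replicate number differed for 9 of the 10 genes in edgeR's quasi-likelihood F test over the 3 replicate terms, against 63.8% of all genes tested. The exception was *Egr2* (adjusted p = 0.0664), and the smallest adjusted p was that of *Arc* (9.92e-08). Of the variance of log2 CPM over the 16 libraries, a median of 76.3% lay between replicate numbers for the 10 genes, against 56.1% over all genes tested, and 12.4% against 14.4% lay between groups. *Nr4a1* had the largest share between replicate numbers of the 10 (86.6%), and *Egr2* the smallest (33.2%). *Npas4* had the largest share between groups, 36.9%, with 38.3% between replicate numbers. The SD of log2 CPM was also larger than usual, with a median of 0.83 for the 10 genes against 0.37 over all genes tested.

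**Figure D2:**
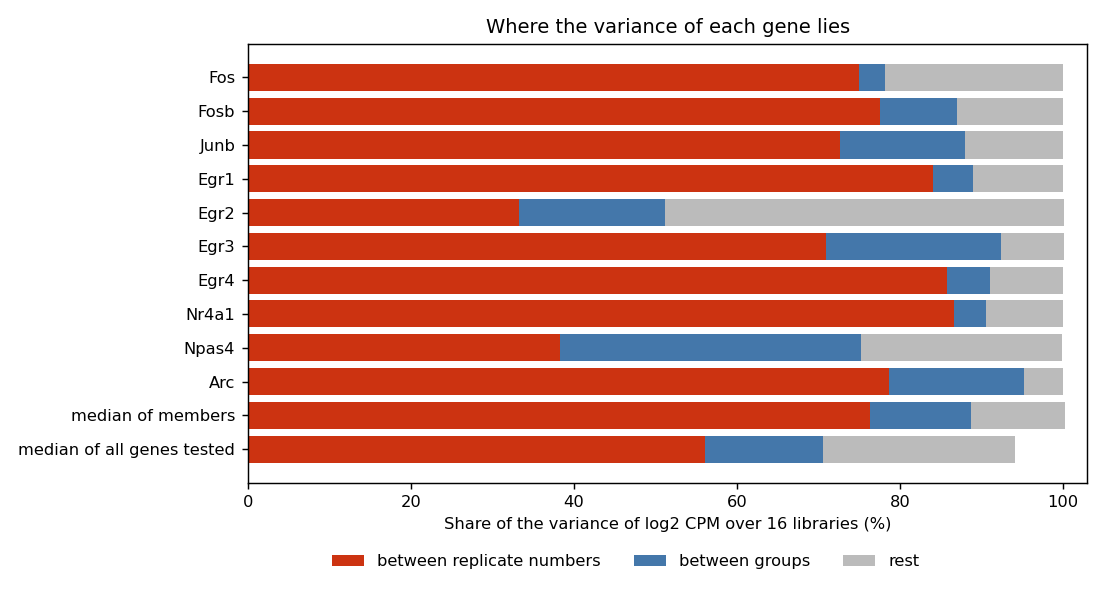
Share of the variance of log2 CPM over 16 libraries, in percent, that lies between replicate numbers, between groups and in the rest, for each gene, with medians below; the 3 medians of a row need not sum to 100%. Replicate numbers take over 70% in 8 of the 10 genes, and *Npas4* has the largest part between groups.

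*Arc* stood at 45.1, 40.7, 131 and 18.0 CPM in control replicates 1 to 4 and at 20.8, 22.2, 50.2 and 13.6 CPM with apoE3. With apoE2 it was at 34.8, 20.3, 64.8 and 16.3 CPM, and with apoE4 at 41.0, 43.0, 126 and 16.5 CPM. The apoE3 library was thus below the control library of its own number in all 4 sets, yet the ranges of the 2 groups overlapped. Groups overlapped for every one of the 60 pairs of a gene and a comparison, and the share over all genes was not computed. The group means were 58.7 ± 49.5 CPM (SD, n = 4) in the control, 56.6 ± 47.8 CPM with apoE4, 34.1 ± 22.0 CPM with apoE2 and 26.7 ± 16.1 CPM with apoE3. Without the replicate number the log2 fold change between apoE3 and control was −1.13 with an SE of 0.68 (edgeR adjusted p = 0.803). Blocked by the replicate number, *Arc* fell by 0.97 ± 0.17 (SE; edgeR adjusted p = 0.00266), and the call held in all 25 alternatives of the blocked fit.

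*Egr3*, one of 4 related zinc finger factors of the Egr family, stood at 14.1, 15.3, 19.9 and 6.17 CPM in the control replicates and at 5.48, 10.7, 11.7 and 2.36 CPM with apoE3. It was at 8.66, 7.37, 18.1 and 4.50 CPM with apoE2 and at 15.1, 11.9, 28.2 and 4.93 CPM with apoE4. Here too each apoE3 library was below its own control, by 0.51 to 1.36 on the log2 scale. With the block, *Egr3* fell by 0.92 ± 0.21 (SE; edgeR adjusted p = 0.0107) under apoE3. The call was lost without apoE3 replicate 1 (adjusted p = 0.0546) and without all libraries of replicate 1 (0.119) or replicate 3 (0.0503). Without the block the log2 fold change was −0.86 with an edgeR adjusted p of 0.806.

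*Npas4*, a factor made almost only in neurons and switched on by calcium entry, stood at 30.7, 21.1, 38.0 and 19.8 CPM in the control replicates and at 13.2, 9.87, 21.4 and 12.3 CPM with apoE3. The 3 lowest of the 16 values were apoE3 libraries, and the control had the highest group mean, 27.4 ± 8.59 CPM (SD, n = 4) against 14.2 ± 5.00 CPM with apoE3. With apoE2 it was at 31.7, 15.7, 19.6 and 29.4 CPM and with apoE4 at 23.8, 13.8, 39.8 and 14.4 CPM. With the block it fell by 0.95 ± 0.23 (SE; edgeR adjusted p = 0.0154) under apoE3. The call was lost without control replicate 1 (adjusted p = 0.0505), without apoE3 replicate 1 (0.0686) and without all of replicate 1 (0.136) or replicate 2 (0.0599). Without the block its log2 fold change was −0.95 (edgeR p = 0.0198, adjusted p = 0.757), and in an exact two-sided permutation test of 4 against 4 libraries p was 0.0857. This was the lowest of the 60 such tests, shared with *Npas4* in apoE3 against apoE2, where 0.0286 is the smallest this design can give.

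Among the AP-1 genes, *Junb* moved the other way. It stood at 75.7, 62.4, 102 and 79.2 CPM in the control replicates and at 106, 77.3, 107 and 102 CPM with apoE3, higher in each of the 4 pairs by 0.07 to 0.49 on the log2 scale. The blocked log2 fold change was 0.31 ± 0.09 (SE; edgeR adjusted p = 0.0414). This call was lost in 15 of the 25 alternatives: in the fit of the 2 groups alone (adjusted p = 0.0558), without any one of the 4 control libraries (0.0574 to 0.187), without apoE3 replicate 1, 2 or 4 (0.0847 to 0.144), without apoE2 replicate 2 or 3 or apoE4 replicate 1 or 2 (0.0506 to 0.0539), and without all of replicate 1, 2 or 4 (0.0808 to 0.232). *Fosb*, which also yields the long-lived ΔFosB protein, was lower in each of the 4 apoE3 pairs, by 0.43 to 0.86, with a blocked log2 fold change of −0.62 ± 0.23 (SE; edgeR adjusted p = 0.0884). It passed with DESeq2 (adjusted p = 0.0471), in the blocked fit of the 2 groups alone (edgeR adjusted p = 0.0349), without the low-count filter (0.00702) and without apoE2 replicate 4 (0.0373), apoE4 replicate 4 (0.0134) or all of replicate 4 (0.0172). *Fos* was lower in 2 pairs and higher in 2, with a blocked log2 fold change of 0.14 ± 0.18 (SE; edgeR adjusted p = 0.665) and group means between 40.9 and 46.1 CPM.

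Of the other members of the Egr family, *Egr2*, which is best known from myelinating cells, met the criterion that the study states, a change of at least 2-fold at an unadjusted p under 0.05. Its log2 fold change with apoE3 was −1.20 in edgeR, with an unadjusted p of 0.0432 and an adjusted p of 0.770. None of the other 9 genes met the criterion in any of the 6 comparisons. It stood at 1.45, 6.67, 8.02 and 2.20 CPM in the control replicates and at 1.75, 1.47, 2.09 and 2.69 CPM with apoE3, so that it was lower in replicates 2 and 3 and higher in 1 and 4. Its blocked value was −1.07 ± 0.43 (SE; edgeR adjusted p = 0.124), and the criterion was no longer met in the fit of the 2 groups alone or without control replicate 3, apoE3 replicate 1 or 2 or apoE4 replicate 1 or 2. With the block *Egr2* passed without control replicate 1 (edgeR adjusted p = 0.0479), apoE3 replicate 4 (0.0387) or all of replicate 4 (0.0384), and without the low-count filter (0.000122). *Egr1*, often used as a marker of active neurons, was lower in 3 of 4 apoE3 pairs with a blocked value of −0.21 ± 0.21 (SE; edgeR adjusted p = 0.559), and *Egr4* lower in 4 of 4 with −0.41 ± 0.20 (SE; edgeR adjusted p = 0.197, and 0.0166 without the low-count filter). *Nr4a1*, an orphan nuclear receptor, was lower in 4 of 4 with −0.49 ± 0.22 (SE; edgeR adjusted p = 0.168), and it passed in the blocked fit of the 2 groups alone (0.0151) and without the low-count filter (0.00155).

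Counted over the 10 genes, none passed the test without the block in apoE3 against control (background 0.00587% of all genes tested), apoE2 against control (0%) or apoE4 against control (0.194%), nor in apoE4 against apoE3 (0.147%), apoE4 against apoE2 (0.252%) or apoE3 against apoE2 (0%). DESeq2 without the block likewise called 0 of them. Backgrounds of called genes, here and below, are from edgeR, and none was computed for DESeq2. At an unadjusted p under 0.05 edgeR had 2, both with apoE3 against control (background 6.43%). It had 0 at that threshold with apoE2 (background 2.79%) and with apoE4 (3.3%) against control, in apoE4 against apoE3 (4.7%), in apoE4 against apoE2 (5.34%) and in apoE3 against apoE2 (2.28%). In edgeR's test of any difference among the 4 groups the count was 0 (background 0.229%), and with the block it was 3, *Arc*, *Egr3* and *Npas4* (background 10.7%). With the block, 3 of 10 were lower with apoE3 against a background of 3.73%, and 1 of 10 was higher against 7.95%. Lower in each of the 4 apoE3 pairs were 6 of 10, *Fosb*, *Arc*, *Egr3*, *Egr4*, *Npas4* and *Nr4a1* (background 16%), and higher in each was *Junb* (background 18.6%). At the study's criterion the 1 lower gene, *Egr2*, stands against a background of 0.71%.

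**Figure D3:**
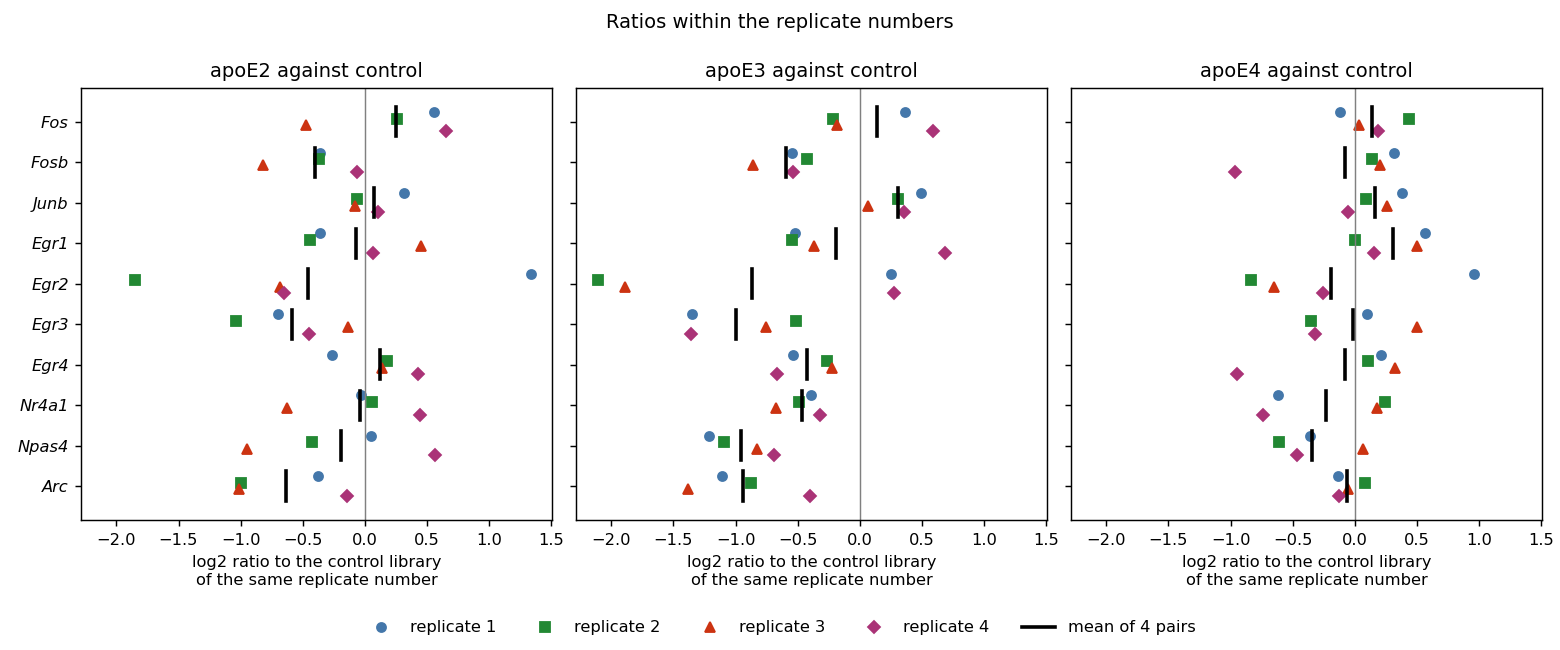
Log2 ratio of each treated library to the control library of the same replicate number, for the 10 genes and the 3 isoforms; points are the 4 pairs and the bar is their mean. With apoE3 all 4 points of *Fosb*, *Egr3*, *Egr4*, *Nr4a1*, *Npas4* and *Arc* lie left of 0 and those of *Junb* right of it.

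With apoE2, *Fosb*, *Arc* and *Egr3* were below the control in each of the 4 pairs (background 9.73%). The blocked value of *Arc* was −0.64 ± 0.16 (SE; edgeR adjusted p = 0.0651) and that of *Egr3* −0.57 ± 0.20 (SE; edgeR adjusted p = 0.193). *Arc* passed with DESeq2 (adjusted p = 0.0103) and, in edgeR, without the low-count filter, without apoE2, apoE3 or apoE4 replicate 4 and without all of replicate 4. *Egr3* passed without the low-count filter (edgeR adjusted p = 0.00441) and *Fosb* without all of replicate 4 (0.0488). With all libraries and the filter, 0 of 10 were called with the block by edgeR (background 1.73%). DESeq2 with the block called 1, and its background was not computed. In edgeR 2 had an unadjusted p under 0.05 (background 13.3%), and 0 met the study's criterion (background 0.722%). *Npas4*, low under apoE3, was lower than the control in 2 of 4 apoE2 pairs and higher in the others, with a blocked value of −0.13 ± 0.22. Between apoE3 and apoE2 the blocked log2 difference of *Npas4* was −0.82 ± 0.23 (SE; edgeR adjusted p = 0.0963, DESeq2 adjusted p = 0.0156), and it passed in edgeR without apoE2 replicate 3 (0.0106). Without the low-count filter *Npas4* (1.37e-07), *Egr4* (0.000791) and *Nr4a1* (0.00852) passed. No member was called there by edgeR with the block (background 1.31%), 3 had an unadjusted p under 0.05 (background 15.9%), and none met the study's criterion (background 0.687%).

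With apoE4 none of the 10 genes passed against the control, and single pairs differed by up to 0.97 on the log2 scale in size. *Arc* differed from the control of its own number by −0.14 to 0.08 on the log2 scale in the 4 pairs, with a blocked value of −0.05 ± 0.16 (SE; edgeR adjusted p = 0.913). Other members spread more widely over the pairs, from −0.97 to 0.31 for *Fosb*, −0.95 to 0.32 for *Egr4*, −0.84 to 0.96 for *Egr2* and −0.74 to 0.24 for *Nr4a1*. *Egr1* was the 1 member higher in each of the 4 pairs (background 14.9%), by 0.01 to 0.57, with a blocked value of 0.32 ± 0.21 (SE; edgeR adjusted p = 0.478). *Npas4* had a blocked value of −0.32 ± 0.22 (SE; edgeR adjusted p = 0.511). None of the 10 was called with the block by edgeR (background 3.3%) or by DESeq2. In edgeR none had an unadjusted p under 0.05 (background 16.6%), and none met the study's criterion (background 1.15%).

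The comparison of apoE4 with apoE3 uses the same apoE3 libraries as the one above and no control library. Without the block 8 of the 10 genes had a higher fitted level with apoE4, the exceptions being *Fos* (log2 difference −0.02) and *Junb* (−0.11), and with the block 9 had, *Fos* standing at 0.01. *Arc* was higher in each of the 4 pairs, by 0.27 to 1.33, with a blocked log2 difference of 0.91 ± 0.17 (SE; edgeR adjusted p = 0.0105). The call was lost without apoE3 replicate 1 (adjusted p = 0.0708), apoE3 replicate 3 (0.0712) or apoE4 replicate 3 (0.0570), and without all of replicate 1 (0.104) or replicate 3 (0.178). *Egr3* was higher by 0.16 to 1.45 in the 4 pairs, with a blocked difference of 0.93 ± 0.21 (SE; edgeR adjusted p = 0.0355). It was lost without apoE3 replicate 1, 3 or 4 (adjusted p 0.0720 to 0.164), without apoE4 replicate 1 or 3 (0.124 and 0.165) and without all of replicate 1, 3 or 4 (0.0640 to 0.342). *Npas4* was also higher in each pair, by 0.23 to 0.89, and did not pass (blocked difference 0.64 ± 0.23, edgeR adjusted p = 0.187), except in the blocked fit of the 2 groups alone (0.0408) and without the low-count filter (9.51e-05). *Fosb*, *Egr1* and *Egr4* did not pass either (edgeR adjusted p = 0.179, 0.233 and 0.309), but each did without the low-count filter (0.0129, 0.00199 and 0.033) and without all of replicate 4 (0.0119, 0.0267 and 0.0291). *Fosb* and *Egr4* also passed without apoE4 replicate 4 (0.0143 and 0.0412), and *Egr1* without apoE3 replicate 4 (0.0183). Thus 2 of 10 were higher with the block against a background of 1.07%, 0 lower against 0.693%, and 3 of 10 were higher in each of the 4 pairs against 12.5%. The study's criterion was met by 0 (background 1.25%).

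**Figure D4:**
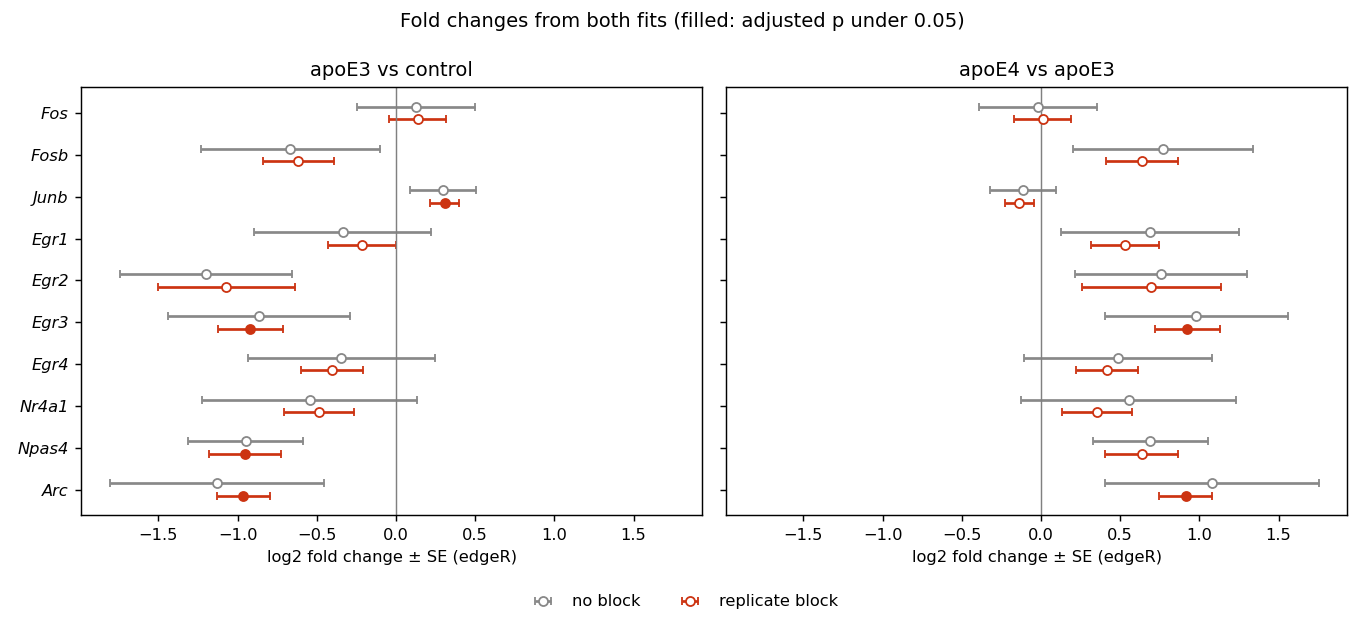
Log2 fold change of each gene with its SE from edgeR, without (grey) and with (red) the replicate block, for apoE3 against control and apoE4 against apoE3; filled points have an adjusted p under 0.05. The values of both fits lie close together, the SE with the block is smaller, and the filled points are *Junb*, *Egr3*, *Npas4* and *Arc* on the left and *Egr3* and *Arc* on the right.

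Against apoE2, apoE4 left *Arc* higher by 0.59 ± 0.16 (SE; edgeR adjusted p = 0.0580, DESeq2 adjusted p = 0.0172). In edgeR it passed without the low-count filter (1.7e-05), without apoE2 replicate 1 (0.0332) and without apoE2, apoE3, apoE4 or all of replicate 4 (0.0154 to 0.0446). *Egr3* passed without the low-count filter (0.0039) or apoE3 replicate 2 (0.046), and *Fosb* without apoE4 replicate 4 (0.0326) or all of replicate 4 (0.016). With the block edgeR called 0 of the 10 in this comparison (background 4.44%), and DESeq2, whose background was not computed, called 1. In edgeR 2 had an unadjusted p under 0.05 (background 18%), and 0 met the study's criterion (background 1.3%).

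RNA of cell type markers also differed between the groups and replicate numbers. With apoE3 the summed astrocyte markers were higher than in the control in each of the 4 pairs, by 0.63 to 1.56 on the log2 scale (1270 to 3770 CPM in replicate 1, 513 to 793 in replicate 2, 1370 to 2360 in replicate 3 and 2480 to 5920 in replicate 4). The summed neuronal markers were lower in each of the 4, by 0.02 to 0.50 (5230 to 4350, 6640 to 6570, 7150 to 6850 and 4220 to 2970 CPM). Of the single markers, 6 of 6 of astrocytes and 4 of 6 of the oligodendrocyte lineage were higher in each of the 4 pairs, as was 1 of 6 each of microglia, of endothelial cells and of fibroblasts and mural cells, and 6 of 10 of neurons were lower and 1 higher in each. With apoE4, where none of the 10 immediate early genes passed against the control, the summed astrocyte markers were likewise higher in each of the 4 pairs, by 0.44 to 0.97, as were 6 of 6 single ones. Also higher in each were 3 of 6 of the oligodendrocyte lineage and 3 of 6 of fibroblasts and mural cells. The same held for 1 of 6 each of microglia and endothelial cells, and 1 microglial marker was lower in each. The summed neuronal markers were lower with apoE4 in 3 of 4 pairs (−0.29 to 0.07), and 4 of 10 single ones were lower in each. Replicate 4, in which 7 of the 10 immediate early genes had their lowest mean, had 2970 to 4590 CPM of neuronal and 2420 to 5920 CPM of astrocyte markers, replicate 2, in which the other 3 did, had 6520 to 6960 and 513 to 793 CPM, and replicate 3 had 6830 to 7560 and 1370 to 2360 CPM. Divided by the summed neuronal markers of the same library, *Egr3* stayed below the control in 4 of 4 apoE3 pairs, by 0.50 to 1.08, as did *Npas4*, by 0.19 to 1.07, and *Arc* in 3 of 4 (−1.32 to 0.11). *Fosb* and *Egr4* stayed lower in 4 of 4, *Nr4a1* in 3 of 4, and *Junb* higher in 4 of 4. Relative to neuronal markers, *Arc* (0.05 to 1.33), *Egr3* (0.07 to 1.26) and *Npas4* (0.01 to 0.90) were each higher with apoE4 than with apoE3 in 4 of 4 pairs, the lowest of these log2 ratios lying near 0. Between the same groups the summed astrocyte markers were lower with apoE4 in 4 of 4 pairs (log2 ratio −0.60 to −0.09), and the summed neuronal markers higher in 3 of 4 (−0.0037 to 0.22), with 4 of 10 single neuronal markers higher and 2 lower in each pair. These ratios are descriptions added after the data were seen, and the part of marker RNA in the results was not tested.

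**Figure D5:**
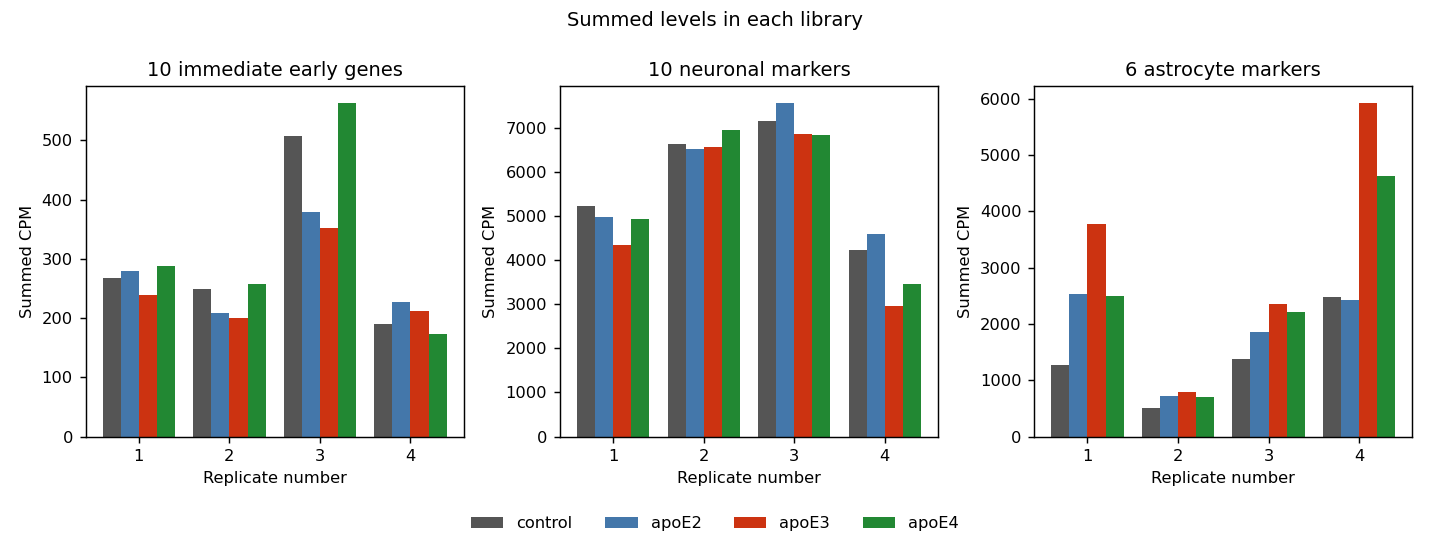
Summed CPM of the 10 immediate early genes, of 10 neuronal markers and of 6 astrocyte markers in each library, by replicate number and group. The immediate early genes are highest in replicate 3 (352 to 563 CPM), and astrocyte markers are highest with apoE3 in every replicate number.

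Among 18 further early transcription factors, 1 rose with apoE3 in the blocked edgeR fit and 0 fell, against the backgrounds of 7.95% higher and 3.73% lower given above. This was *Klf4*, a Krüppel-like factor, at 1.32 ± 0.25 (SE; edgeR adjusted p = 0.00405), from 1.72 ± 1.57 CPM (SD, n = 4) in the control to 4.21 ± 3.55 CPM, and its call was lost without the libraries of replicate 1 (adjusted p = 0.0507). The other factors with the smallest unadjusted p in the fit without the block did not pass: the AP-1 gene *Jund* had a blocked value of 0.30 (edgeR adjusted p = 0.105) and *Maff* of 0.71 (0.111). With the block 4 others, named after their values were seen, had smaller p than these and did not pass either, *Ier2* (0.38, edgeR adjusted p = 0.0542), *Klf10* (−0.47, 0.0585), *Fosl2* (0.21, 0.0691) and *Nr4a3* (−0.43, 0.0964). The median log2 fold change of the 18 was 0.19, against −0.61 for the 10 immediate early genes and 0.02 over all genes tested, all without the block. With apoE4 the AP-1 gene *Fosl2* rose by 0.35 ± 0.07 with the block (SE; edgeR adjusted p = 0.0126), a call lost in 6 of 25 alternatives (adjusted p up to 0.154). *Jun* was higher with apoE3 than with apoE2 (0.47 ± 0.09, edgeR adjusted p = 0.0274), lost in 10 of 25. With apoE4 *Ier2* (0.35, edgeR adjusted p = 0.156) and *Klf4* (0.87, 0.0781) did not pass, nor did *Maff* (0.57, 0.401), *Jun* (−0.33, 0.0993) and *Csrnp1* (0.67, 0.141) with apoE2.

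Among 30 early and delayed effectors, which hold secreted, synaptic and signalling proteins and enzymes, 4 fell and 3 rose with apoE3 in the blocked fit, against 3.73% lower and 7.95% higher over all genes tested, so that the number that rose was near the background. The 4 lower ones were *Inhba*, which encodes the activin A subunit (−1.15 ± 0.34, edgeR adjusted p = 0.0403), *Ptgs2*, cyclooxygenase-2 (−1.05 ± 0.25, 0.0148), *Pcsk1*, a prohormone convertase (−0.82 ± 0.19, 0.0140), and *Arl4d*, a small GTPase (−0.80 ± 0.20, 0.0175). The 3 higher ones were *Cyr61*, a secreted matrix protein (1.16 ± 0.25, edgeR adjusted p = 0.00936), *Gadd45g*, a growth arrest and DNA damage gene (0.48 ± 0.10, 0.00844), and *Plk2*, a kinase that acts in synaptic scaling (0.41 ± 0.12, 0.0381). Of the 25 alternatives of the blocked fit, the call was lost in 1 for *Ptgs2* (without replicate 3, adjusted p = 0.0761) and in 1 for *Gadd45g* (without replicate 1, 0.0876), in 3 for *Cyr61*, 5 for *Arl4d*, 6 for *Pcsk1*, 11 for *Inhba* and 12 for *Plk2*. With apoE4 *Dusp5*, a nuclear phosphatase of ERK, was higher than in the control (0.50 ± 0.12, edgeR adjusted p = 0.0356), than with apoE3 (0.67 ± 0.12, 0.0105) and than with apoE2 (0.51 ± 0.12, 0.0248), calls lost in 14, 4 and 10 of 25 alternatives. *Inhba* was higher with apoE4 than with apoE2 (1.42 ± 0.34, edgeR adjusted p = 0.0260), lost in 8 of 25. *Trib1* (0.56, edgeR adjusted p = 0.119) and *Sik1* (0.17, 0.471) did not pass with apoE4, nor did *Inhba* (−1.23, 0.0869), *Plk2* (0.30, 0.278) and *Coq10b* (0.27, 0.588) with apoE2.

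Of 23 regulators upstream of the immediate early genes, 3 fell and 1 rose with apoE3 in the blocked fit, against 3.73% lower and 7.95% higher over all genes tested. The 3 lower ones were *Mef2c*, a calcium-responsive transcription factor (−0.38 ± 0.09, edgeR adjusted p = 0.0157), *Camk2b*, a calcium/calmodulin kinase subunit (−0.36 ± 0.11, 0.0397), and *Ppp3ca*, the catalytic subunit of calcineurin (−0.34 ± 0.10, 0.0354). *Elk3*, an ETS partner of the serum response factor, rose (1.19 ± 0.27, edgeR adjusted p = 0.0112). These calls were lost in 5, 14, 10 and 3 of 25 alternatives. *Elk4*, a further ETS partner, was the 1 gene of the 3 lists called without the block: it was at 94.0 ± 30.6 CPM (SD, n = 4) with apoE4, with no library below 57.5 CPM, and at 26.3 ± 4.28 CPM in the control, with none above 29.9 CPM. Its log2 fold change was 1.84 ± 0.24 (SE; edgeR adjusted p = 0.0048), and in the fit of the 2 groups alone it did not pass (0.0993). It was also higher with apoE4 than with apoE3 (1.5 ± 0.24, edgeR adjusted p = 0.0204) and apoE2 (1.59 ± 0.24, 0.00939), calls lost in 6 and 3 of 21 alternatives (adjusted p up to 0.337 and 0.171). With the block all 3 calls of *Elk4* held in all 25 alternatives. *Rps6ka5*, a kinase of CREB, was lower with apoE2 (−0.57 ± 0.13, edgeR adjusted p = 0.0366), lost in 15 of 25. *Ep300* (0.37, edgeR adjusted p = 0.305) and *Srf* (−0.19, 0.459) did not pass with apoE4, nor did *Elk1* (−0.22, 0.350) and *Elk3* (0.63, 0.313) with apoE2.

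Across the 16 libraries the immediate early genes followed one another unequally. The correlation of log2 CPM with the mean of the other 9, a description over libraries that share replicate numbers and depth, was 0.97 for *Fosb*, 0.96 for *Arc* and 0.90 for *Nr4a1*. It was 0.45 for *Fos* and 0.40 for *Junb*. Outside the 10, the genes most like their mean were *Gpr3*, a receptor that raises cyclic AMP (r = 0.95), *Ptgs2* (0.94), the kinase gene *Sik3* (0.94), *Arr3* (0.93) and *Ets2* (0.93). *Ptgs2* ranged from 5.57 CPM in apoE3 replicate 4 to 207 CPM in control replicate 3. Within the replicate numbers, with each set centred on its own mean, r was 0.85 for *Ptgs2*, 0.84 for *Sik3*, 0.79 for *Arr3*, 0.73 for *Gpr3* and 0.54 for *Ets2*.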

How the data were processed

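RNA of 16 cultures was sequenced by the study, which aligned the reads to mm10 with STAR and counted them per gene with HTSeq. The deposited files hold these raw counts by gene symbol, not normalized. The annotation and the strand setting are not given in the sources used here. Between 38.4 and 73.7% of the counted reads of a library fell on no single gene, and those rows were left out. The labels give the cytosine-β-D-arabinoside dose as 5 mmol/L, a unit in which the study's methods differ. Replicate numbers come from the labels.

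The fit was edgeR's quasi-likelihood test (edgeR 4.0.16, R 4.3.3) with TMM scaling over all 16 libraries and filterByExpr (minimum count 10, total 15, proportion 0.7), with Benjamini-Hochberg adjustment over the 17038 genes tested within each of 6 comparisons, and a threshold of 0.05. Standard errors come from the F statistic. The study's own per-gene test on normalized counts was not used; an exact permutation test stands in its place. The main fit has no replicate block. Libraries with the same number deviated together from their group means (Pearson r over genes 0.362 to 0.831, all above 0.1, against −0.736 to 0.569 between different numbers). The range was 0.766 to 0.831 in replicate 2, 0.681 to 0.79 in replicate 4 and 0.62 to 0.671 in replicate 3. In replicate 1 it was 0.362 to 0.552, within the range between different numbers. The numbers were taken to pair the libraries, and blocked values are printed. The labels do not say what a number marks.

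CPM was computed from the counts on genes with TMM factors, and log2 CPM used a prior count of 2. Exon lengths are from GENCODE M21. The 10 genes and all gene lists were chosen with earlier results of these data known. All 10 genes are named. From each list, genes called in any comparison and the 3 with the smallest p, without the block, in each comparison with the control are named, as are the 5 genes with the highest r with the mean of the 10. The fits were tested on simulated data first. Alternatives were DESeq2 1.42.0 and its size factors, no filter, a filter of 1 CPM in 8 libraries, the 2 groups alone and libraries left out. Alternatives of the blocked fit and the ratios to neuronal markers were added after the data were seen. P-values without the block measure the spread between these cultures. Those with the block measure the spread that is left after the group and the replicate number.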

Additional observations from a re-analysis of the deposited data

Results flagged for a closer look

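The contrast of apoE4 with apoE3 differed for 2 of the 10 genes once libraries were blocked by replicate number, against 1.77% of all genes tested. *Arc* was higher with apoE4 by a log2 difference of 0.914 (edgeR adjusted p = 0.0105) and *Egr3* by 0.925 (edgeR adjusted p = 0.0355). Both were higher in all of their 4 pairs, and the calls held in 20 of 25 alternatives of that fit for *Arc* and in 17 for *Egr3*. Without the block neither passed (edgeR adjusted p = 1.00 for each). None of the 40 sets of 4 libraries, 1 for each gene and group, held a value far enough from the other 3 to stand apart.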

How the results depend on the processing

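Without the replicate block no alternative other than the block itself changed the counts of called genes. The paired fit with the replicate block gave 4 genes called for apoE3 against control (background 11.7%) and 2 for apoE4 against apoE3 (1.77%). It gave 3 for any difference among the groups (10.7%). The unblocked fit had 0 in each of these, and the block changed no other count of calls. At the study's criterion, apoE3 against control went from 1 gene to 0 in the fit of the 2 groups alone. With 1 library left out it ranged from 0 to 2 (0 without control replicate 3, apoE3 replicate 1 or 2, or apoE4 replicate 1 or 2; 2 without control replicate 4 or apoE3 replicate 3). For apoE4 against apoE3 it ranged from 0 to 1 (1 without apoE4 replicate 4), and for apoE3 against apoE2 from 0 to 1 (1 without apoE3 replicate 3). Replicate number was called for 9 to 10 genes.

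In the fit with the replicate block, leaving out the low-count filter gave 8 genes for apoE3 against control, 6 for apoE4 against apoE3, 2 for apoE2 against control, 2 for apoE4 against apoE2 and 3 for apoE3 against apoE2; DESeq2 with the block gave 1 for each of the last 3. For apoE3 against control the blocked DESeq2 fit gave 5 genes in place of 4, adding *Fosb*, and the blocked fit of the 2 groups alone also gave 5, adding *Fosb* and *Nr4a1* and losing *Junb*; for apoE4 against apoE3 the fit of the 2 groups alone gave 3 in place of 2, adding *Npas4*. With libraries left out, calls ranged from 1 to 5 for apoE3 against control (1 without apoE3 replicate 1 or all of replicate 1, and 2 without all of replicate 2) and from 0 to 4 for apoE4 against apoE3 (0 without apoE3 replicate 1 or 3, apoE4 replicate 3 or all of replicate 1 or 3; 1 without apoE4 replicate 1; 4 without apoE4 replicate 4 or all of replicate 4). They ranged from 0 to 2 for apoE2 against control (1 without apoE2, apoE3 or apoE4 replicate 4; 2 without all of replicate 4) and from 0 to 2 for apoE4 against apoE2 (1 without apoE2 replicate 1 or 4 or apoE3 replicate 2 or 4; 2 without apoE4 replicate 4 or all of replicate 4). For apoE3 against apoE2 they ranged from 0 to 1 (1 without apoE2 replicate 3). The cause of these shifts was not tested. No fold change past a threshold changed sign in any alternative. The median of all genes moved by under 0.1 between scalings. *Egr2* had as few as 23 counts in a library, and *Fosb* and *Egr3* as few as 36 each, which limits their precision.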
